A study of Homo sapiens with 8 samples.

Results

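Amino acid transporters were examined in H2452 cells, an established human line labelled as pleural biphasic mesothelioma, in which epithelioid and spindle-shaped sarcomatoid growth occur together. The genes were taken by symbol, as all rows of the deposited table in the families SLC1, SLC3, SLC6, SLC7, SLC36, SLC38 and SLC43. This gave 59 of 20323 genes. The families, and the gene lists set beside them below, were chosen with earlier results of these data known. One group received 20 nM of the tubulin-binding plant compound deoxypodophyllotoxin (DPT) for 48 h and the other the solvent DMSO for the same time, and messenger RNA was sequenced in 4 libraries of each group. All 8 libraries came from the same line, which the labels give as wild type, grown in serum-containing medium, and the study set out to find genes that differ between both groups. The design text calls the libraries biological replicates, while the labels name no culture day and tie no DPT library to a DMSO library.

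Cells bring in amino acids through carriers that differ in substrate and driving force. Members of SLC1, SLC6 and SLC38 mostly use the sodium gradient to concentrate their substrates, whereas most of the SLC7 light chains are exchangers that trade an intracellular amino acid for an extracellular one and reach the cell surface only when bound to a heavy chain of the SLC3 family. Members of SLC36 are driven by protons, and SLC43A1 and SLC43A2 carry large neutral amino acids by facilitated diffusion. Several of these genes, among them SLC7A11, SLC3A2, SLC7A5, SLC7A1 and SLC38A2, are known targets of ATF4, the transcription factor that cells switch on when amino acids run short. The families also hold relatives with other substrates, such as SLC6A6, which carries taurine, SLC6A8, which carries creatine, the monoamine carriers SLC6A2, SLC6A3 and SLC6A4, and SLC43A3, which carries purine nucleobases.

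The libraries held 14964432 to 17205391 counts, so that 1 CPM (a count scaled to library size, after TMM) was 14.8 to 17.1 counts. DPT replicate 2 and DMSO replicate 3 stood apart, with scores of 29.26 and 40.76 on the first principal component against -25.6 to -1.02 for the other 6 libraries. Results are therefore given from all 8 libraries, with a term for this pair in the model, and from the other 6 libraries. The fitted spread between replicates was 14.9% in all 8 libraries, 6.3% with the term and 5.54% in the 6 libraries. Because the pair was picked from these same data, adjusted p-values with the term and in the 6 libraries can be too small. Mesothelial markers summed to 1922 to 2899 CPM in DPT and 2940 to 4074 CPM in DMSO over 10 genes, with the keratins KRT8 and KRT18 carrying the sum, while the means of CALB2 (14.3 CPM in DPT and 9.49 CPM in DMSO), WT1 and LRRN4 were higher in DPT. Sarcomatoid markers summed to 7322 to 8677 CPM in DPT and 5544 to 7303 CPM in DMSO over 6 genes, almost all of it vimentin (VIM). The means of the other 5 were lower in DPT, as for COL1A2 with 138 CPM in DPT and 324 CPM in DMSO. The part of these marker shifts in the results was not tested. Leukocyte markers summed to 6.23 to 17.9 CPM in DPT and 8 to 26.5 CPM in DMSO over 7 genes, most of it CD14, and TYROBP had no counts. Endothelial markers summed to 8.03 to 16.5 CPM in DPT and 6.13 to 9.69 CPM in DMSO over 5 genes, most of it TIE1. In bulk RNA from a line, a change in every cell and a change in the share of cells that hold a message cannot be told apart.

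Of the 59 genes, 12 had no count in any library and 28 passed the filter on low counts and were tested. On the FPKM scale, which takes gene length into account, SLC38A2, a sodium-coupled carrier of small neutral amino acids (system A), had the highest level in both groups, at 348 ± 66.9 FPKM in DPT and 499.5 ± 63.3 FPKM in DMSO (SD, n = 4 each). The heavy chain SLC3A2 followed with 248 ± 34.2 FPKM in DPT and 157 ± 10.8 FPKM in DMSO, and SLC38A1, another system A carrier, with 122 ± 25.5 FPKM in DPT and 121 ± 25 FPKM in DMSO. SLC43A3, the glutamine exchanger SLC1A5 (ASCT2), the cystine carrier SLC7A11 (xCT) and the arginine carrier SLC7A1 (CAT1) came next in both groups. The 20 genes down to SLC6A8 and SLC38A9 averaged above 5 FPKM in both groups, and the other 8 tested genes stood below 3 FPKM.

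**Figure D1:**
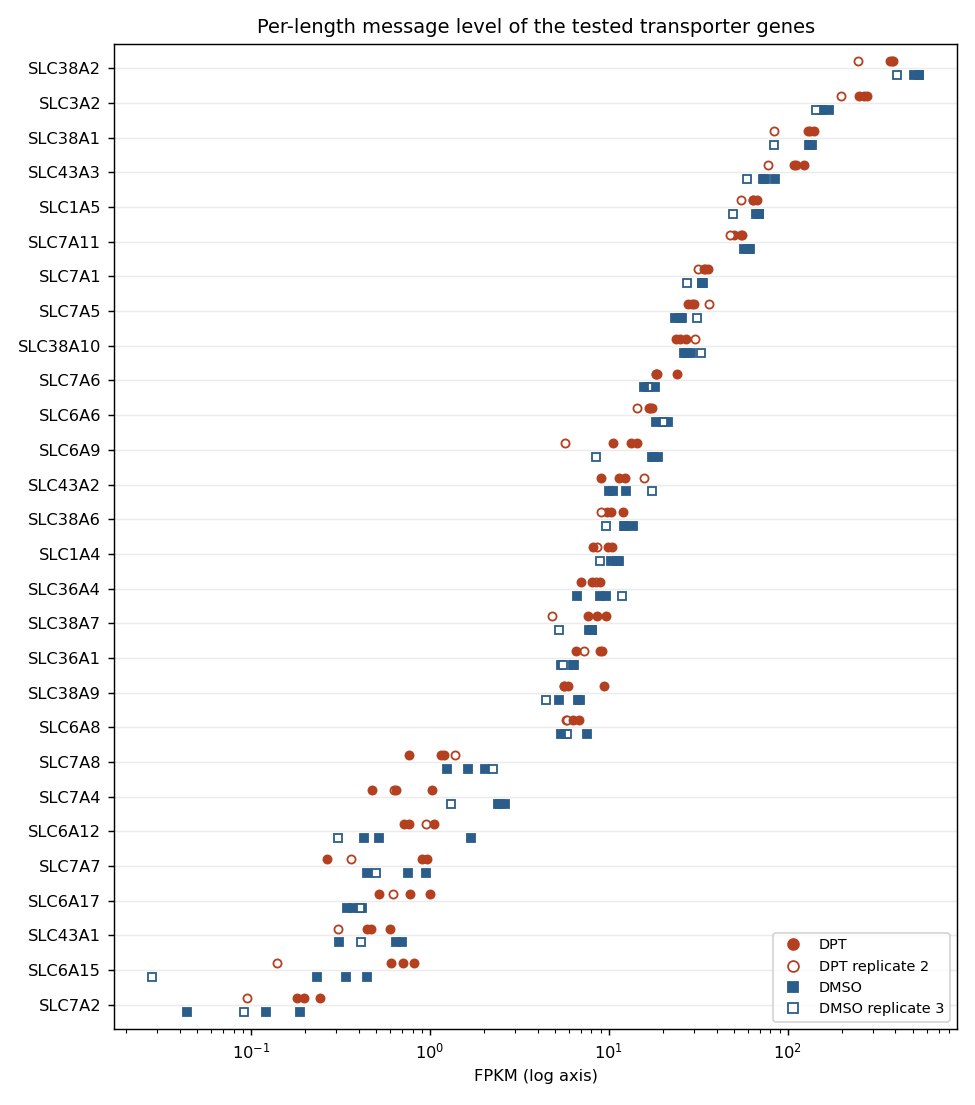
FPKM of the 28 tested transporter genes in each library on a log axis, with DPT as circles above DMSO as squares, and DPT replicate 2 and DMSO replicate 3 drawn open. SLC38A2, SLC3A2 and SLC38A1 have the highest levels, and the open symbols lie on the same side of their groups for SLC38A1, SLC43A2 and SLC6A9.

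In all 8 libraries 2 of the 28 tested genes rose with DPT and 4 fell (edgeR quasi-likelihood test, Benjamini-Hochberg adjusted p under 0.05 over all 12648 tested genes). Among all tested genes 5.68% rose and 5.29% fell, 11.0% together. SLC3A2 and SLC6A17 rose, and SLC7A4, SLC6A6, SLC38A2 and SLC7A11 fell. Once the pair had its own term, 7 transporter genes were higher in DPT and 10 lower, where 16.9% and 17.0% of all tested genes were (34.0% together). The other 6 libraries likewise gave 7 higher and 10 lower, where 17.0% and 17.1% of all tested genes were (34.1% together). All 6 genes called without the term kept their call and direction with it, and 16 genes were called both with the term and in the 6 libraries. The median log2 fold change over the 28 genes was -0.05, beside -0.002 over all tested genes, and it ranged from -0.12 without DPT replicate 3 to 0.04 without DPT replicate 2. The libraries of both groups did not overlap for 3 of the 28 genes that were higher in DPT and 5 that were lower, where 9.50% and 8.73% of all tested genes did so (18.2% together). SLC7A6 and SLC7A8 were the 2 such genes that edgeR did not call in all 8 libraries, and it called both with the term and in the 6 libraries.

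**Figure D2:**
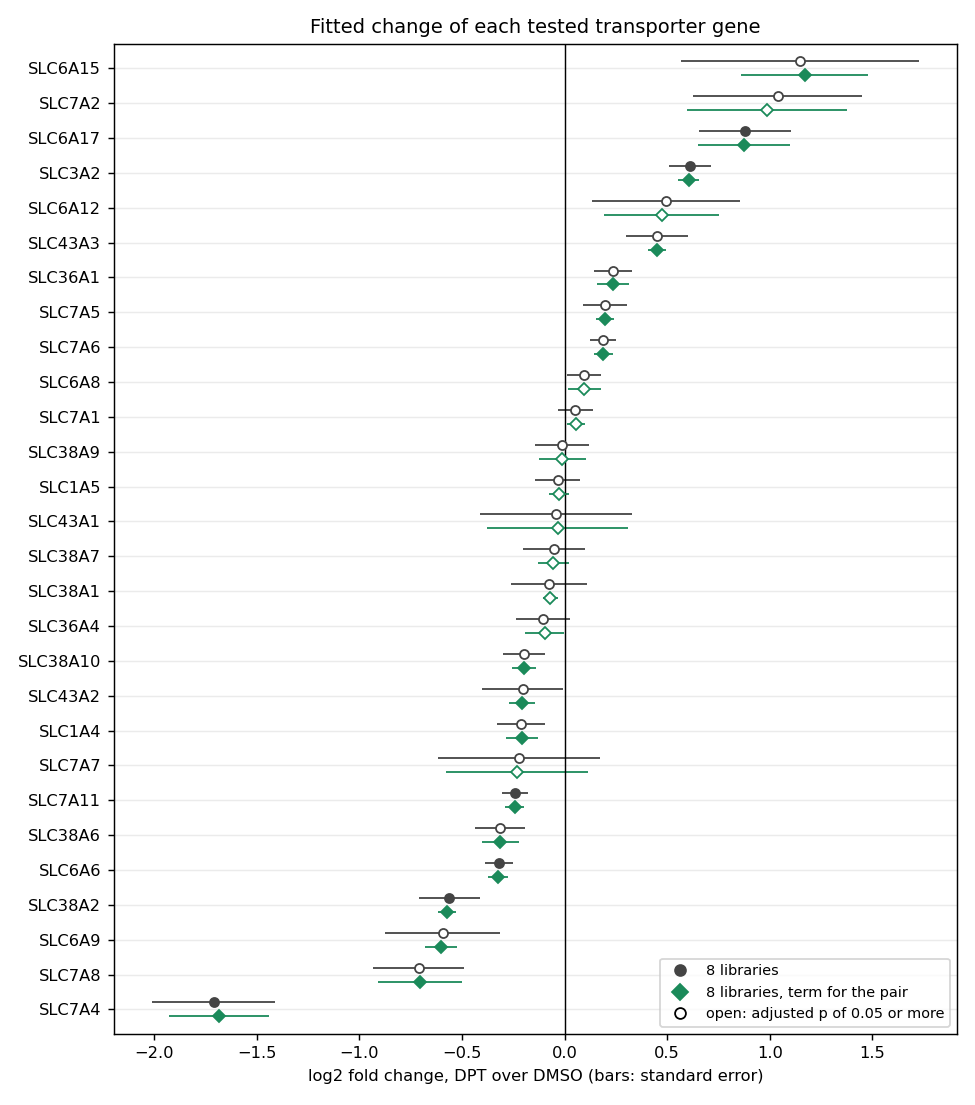
Log2 fold change, DPT over DMSO, of the 28 tested genes with its standard error, from all 8 libraries (circles) and with a term for DPT replicate 2 and DMSO replicate 3 (diamonds). Filled symbols have an adjusted p under 0.05, which holds for 6 genes without and 17 with the term, and both fits place each gene on the same side of 0.

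**Figure D3:**
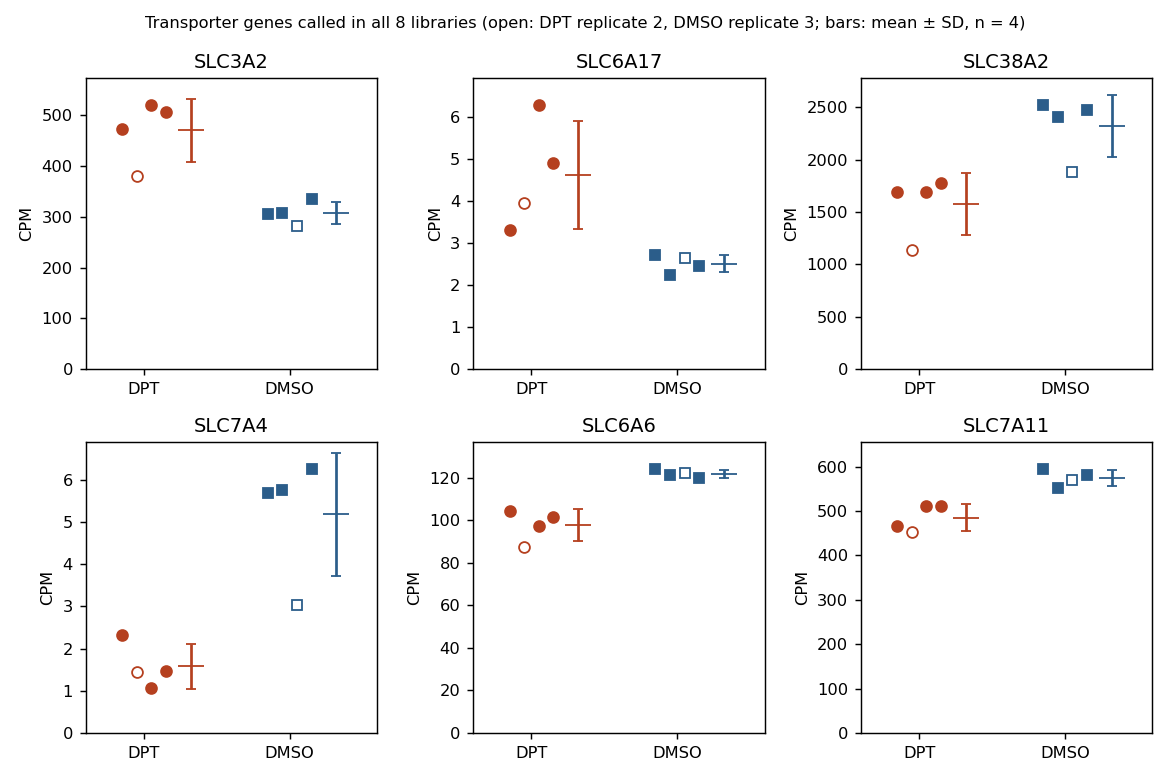
CPM in each library for the 6 genes called in all 8 libraries, DPT to the left of DMSO, with mean and SD (n = 4 each). The groups do not overlap in any panel, and DPT replicate 2 is the lowest DPT library for SLC3A2, SLC38A2, SLC6A6 and SLC7A11.

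SLC3A2 (CD98, 4F2hc; ENSG00000168003, chromosome 11, 62856102 to 62888875 of GRCh38) is the heavy chain that carries SLC7A5, SLC7A6, SLC7A7, SLC7A8, SLC7A10 and SLC7A11 to the plasma membrane. Its level was 473, 381, 521 and 506 CPM in DPT replicates 1 to 4 and 306, 307, 282 and 336 CPM in DMSO replicates 1 to 4. Every DPT library lay above every DMSO library, and DPT replicate 2 and DMSO replicate 3 were the lowest of their groups. The rise was 1.53-fold (log2 fold change 0.61, SE 0.10, edgeR adjusted p = 0.00685). With the term the log2 fold change was 0.60 (adjusted p = 2.37e-07) and in the 6 libraries 0.66 (adjusted p = 1.07e-08). SLC3A2 and SLC7A4 were the 2 transporter genes called under all 15 alternative settings tried. The heavy chain of the other kind, SLC3A1 (rBAT), known from kidney and gut, reached at most 5 counts and was not tested.

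A promoter sequence of SLC3A2 is shown because this gene had the smallest adjusted p of the tested transporter genes in all 8 libraries and is a known ATF4 target. ATF4 binds with C/EBP proteins to a composite element whose core is TGATGNAA (CARE), and NRF2 binds antioxidant elements with the core TGACNNNGC. Promoter windows in RefSeq (GRCh38.p14, 250 bases before to 50 after a start site) were found for 44 of the 59 genes, in 66 windows. Of the 28 tested genes 21 had a window. Both cores were searched on both strands. SLC3A2 has 3 windows, and the one at chr11:62881449-62881748 on the plus strand holds both cores, in capitals here, first the antioxidant core and then the ATF4 core in reverse complement.
SLC3A2: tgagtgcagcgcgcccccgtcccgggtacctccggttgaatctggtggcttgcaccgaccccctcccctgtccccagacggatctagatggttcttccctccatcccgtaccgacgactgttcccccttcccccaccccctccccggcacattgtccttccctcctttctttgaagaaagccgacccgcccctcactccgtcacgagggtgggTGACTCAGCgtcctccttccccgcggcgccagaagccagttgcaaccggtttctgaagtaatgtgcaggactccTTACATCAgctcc
The antioxidant core in this window also holds the letters TGACTCA, to which AP-1 factors such as FOS, JUN and ATF3 are known to bind. Of the 66 windows 6 (9.09%) held the ATF4 core and 7 (10.6%) the antioxidant core, where 3.62% and 13.3% of all 35116 windows did. The match is one of letters, and no binding was measured.

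The ATF4 core was also found in a window of SLC1A4, SLC1A5, SLC7A1, SLC38A1 and SLC1A3. Each of these genes except SLC7A1 also had a window without the core. For SLC1A4, SLC1A5 and SLC38A1 the window with the core lay inside the gene, as it did for SLC3A2. The window at the 5' end of SLC1A4 and that of SLC1A5 held none, and no window of SLC38A1 reached its 5' end. The stretches of the 4 tested genes with the core are shown, with 20 bases on either side and the core in capitals, to set beside their levels in the paragraphs that follow. They lie at chr2:64989372-64989419 on the plus strand for SLC1A4, where the core is in reverse complement, and on the minus strand at chr19:46784884-46784931 for SLC1A5, chr13:29595654-29595701 for SLC7A1 and chr12:46266493-46266540 for SLC38A1.
SLC1A4: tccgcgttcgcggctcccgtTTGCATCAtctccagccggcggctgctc
SLC1A5: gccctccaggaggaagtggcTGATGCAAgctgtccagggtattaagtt
SLC7A1: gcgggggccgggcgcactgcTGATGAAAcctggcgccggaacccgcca
SLC38A1: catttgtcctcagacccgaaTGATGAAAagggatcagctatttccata
None of these 4 genes was called in all 8 libraries, and SLC1A4 was called lower with the term for the pair. The window of SLC38A2 and that of SLC7A5 held no ATF4 core. No window was found for SLC7A11, SLC7A4 or SLC6A6, so these called genes were not searched. The known element of human SLC38A2 lies in its first intron, outside such a window.

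The light-chain partners of SLC3A2 moved in both directions. SLC7A11, which imports cystine in exchange for glutamate for glutathione synthesis (ENSG00000151012, chromosome 4, 138164097 to 138242349), had 467, 452, 511 and 511 CPM in DPT replicates 1 to 4 and 595, 552, 570.1 and 581 CPM in DMSO replicates 1 to 4. All 4 DPT libraries were below all 4 DMSO libraries, and DMSO replicate 3 stood within its group. SLC7A11 fell by 0.24 on the log2 scale (SE 0.06, edgeR adjusted p = 0.0405). With the term it fell by 0.24 (adjusted p = 0.000465) and in the 6 libraries by 0.22 (adjusted p = 0.00113). The call from 8 libraries was lost without any single library other than DPT replicate 2 or DMSO replicate 3 (adjusted p 0.0728 to 0.126), and with limma on log2(FPKM + 1) (adjusted p = 0.0964). An opposite-strand transcript, SLC7A11-AS1, shares 8.97% of its exonic bases in GENCODE 29, and whether the counting used strand was not stated in the labels.

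SLC7A5 (LAT1), which brings in leucine and other large neutral amino acids, had 134, 164, 130.4 and 124 CPM in DPT replicates 1 to 4 and 118, 113, 142 and 109 CPM in DMSO replicates 1 to 4. DPT replicate 2 and DMSO replicate 3 were the highest of their groups, and DMSO replicate 3 lay above 3 of the 4 DPT libraries. The log2 fold change of 0.20 (SE 0.11) was not called in all 8 libraries (edgeR adjusted p = 0.29). With the term SLC7A5 rose by 0.20 (adjusted p = 0.0029), and in the 6 libraries by 0.19 (adjusted p = 0.00691). SLC7A6 (y+LAT2), which exchanges cationic for neutral amino acids, averaged 101 ± 4.60 CPM in DPT and 88.5 ± 4.03 CPM in DMSO (SD, n = 4 each), with no overlap between the groups (adjusted p = 0.0829, and 0.0049 with the term). A share of 44.4% of its exonic bases overlaps SLC7A6OS on the opposite strand, and its counts were not whole numbers in any of the 8 libraries, so this value is uncertain.

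Among the low-level partners, SLC7A8 (LAT2), a carrier of small and large neutral amino acids, averaged 2.59 ± 0.519 CPM in DPT and 4.23 ± 0.912 CPM in DMSO (log2 fold change -0.71, edgeR adjusted p = 0.0711, and 0.0411 by DESeq2). With the term it fell by 0.70 (adjusted p = 0.0137) and in the 6 libraries by 0.67 (adjusted p = 0.0464). SLC7A7 (y+LAT1) averaged 1.07 ± 0.512 CPM in DPT and 1.26 ± 0.406 CPM in DMSO, with an adjusted p of 0.775, and SLC7A10 reached 1 count. Summed over the 6 light chains, FPKM was 99.9 to 111 in DPT and 102 to 110.0 in DMSO, which overlapped. The FPKM of SLC3A2 was 2.38 ± 0.310 times that sum in DPT and 1.50 ± 0.149 times in DMSO (SD, n = 4 each), and the lowest DPT ratio, 1.92 in replicate 2, exceeded the highest DMSO ratio, 1.68 in replicate 4. The share of SLC7A11 in the sum was 45.8% to 53.4% in DPT and 54.2% to 59.2% in DMSO. Both ratios are descriptions chosen after the values were seen and were not tested.

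**Figure D4:**
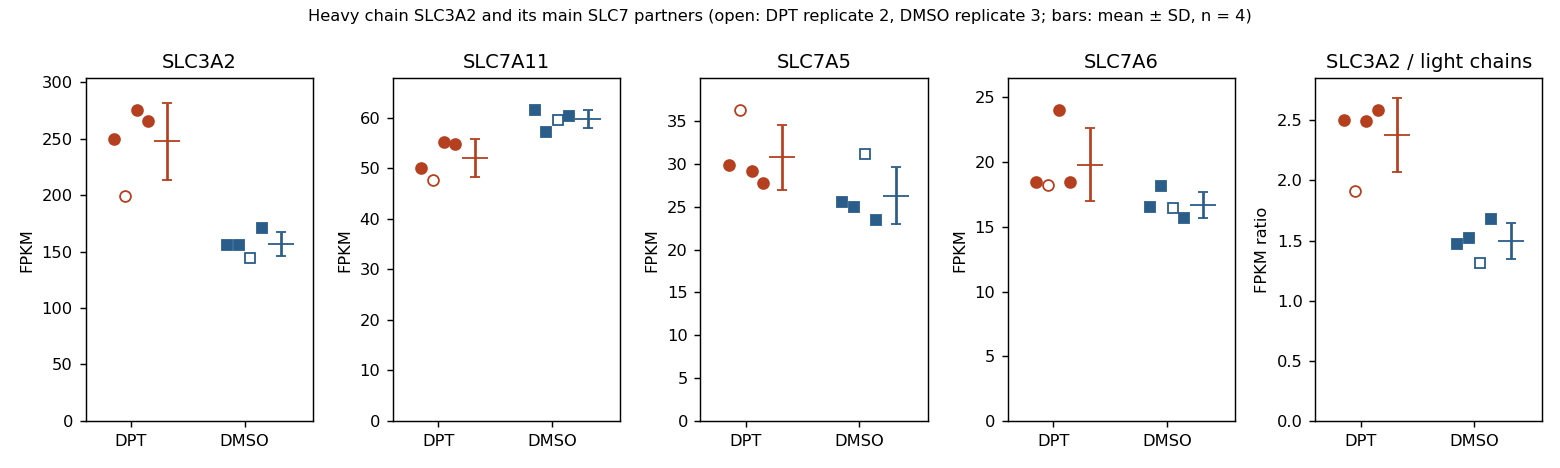
FPKM of the heavy chain SLC3A2, of 3 light chains and of SLC3A2 relative to the summed light chains in each library, DPT to the left of DMSO, with mean and SD (n = 4 each). The ratio is 1.92 to 2.59 in DPT and 1.32 to 1.68 in DMSO, and the DPT mean is below the DMSO mean for SLC7A11 and above it for SLC7A5.

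Of the cationic amino acid carriers, which work without a heavy chain, SLC7A1 (CAT1), the widespread importer of arginine and lysine, had 261, 228, 244 and 250.3 CPM in DPT replicates 1 to 4 and 251, 248, 201 and 250.1 CPM in DMSO replicates 1 to 4. The groups overlapped, with DMSO replicate 3 lowest of all, and the log2 fold change was 0.05 (SE 0.09, edgeR adjusted p = 0.754, and 0.348 with the term). SLC7A2 (CAT2) averaged 1.3 ± 0.505 CPM in DPT and 0.629 ± 0.259 CPM in DMSO (SD, n = 4 each). It was not called in all 8 libraries (adjusted p = 0.143) or with the term (adjusted p = 0.061) but was called higher in the 6 libraries (log2 fold change 1.34, adjusted p = 0.0179), and within the pair the log2 ratio of DPT replicate 2 to DMSO replicate 3 was -0.20.

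SLC7A4, a relative of the cationic carriers whose substrate is not settled (ENSG00000099960, chromosome 22, 21028718 to 21032840), had the largest fold change of the tested transporter genes. Its level was 2.32, 1.44, 1.08 and 1.47 CPM in DPT replicates 1 to 4 and 5.69, 5.76, 3.04 and 6.26 CPM in DMSO replicates 1 to 4, or 18 to 38 counts in DPT and 52 to 95 counts in DMSO. All DPT libraries were below all DMSO libraries, and DMSO replicate 3 was the lowest DMSO library. SLC7A4 fell 3.27-fold (log2 fold change -1.71, SE 0.30, edgeR adjusted p = 0.00812). With the term the log2 fold change was -1.68 (adjusted p = 6.09e-05) and in the 6 libraries -1.86 (adjusted p = 2.83e-05). With limma on log2(FPKM + 1) it was -0.91 (adjusted p = 0.0115), a scale that understates changes at low levels.

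SLC38A2 (SNAT2), the leading transporter message and a carrier that cells are known to raise on amino acid starvation (ENSG00000134294, chromosome 12, 46358189 to 46372867), fell with DPT. Its level was 1689, 1133, 1691 and 1777 CPM in DPT replicates 1 to 4 and 2523, 2404, 1882 and 2476 CPM in DMSO replicates 1 to 4. DPT replicate 2 and DMSO replicate 3 were the lowest of their groups, and still every DPT library was below every DMSO library. SLC38A2 fell by 0.56 on the log2 scale (SE 0.15, edgeR adjusted p = 0.0382). With the term it fell by 0.57 (adjusted p = 5.1e-08) and in the 6 libraries by 0.52 (adjusted p = 3.24e-09). Leaving out DPT replicate 2 or DMSO replicate 3 kept the call from 8 libraries, and leaving out any one of the other 6 lost it (adjusted p 0.0643 to 0.109), as did limma on log2(FPKM + 1) (adjusted p = 0.0669).

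SLC38A1 (SNAT1), a system A carrier of glutamine and alanine, is the next coding gene on the same strand of chromosome 12, separated from SLC38A2 by 88171 bases in GENCODE 29. Its level was 857, 578, 894 and 918 CPM in DPT replicates 1 to 4 and 946, 940.3, 583 and 951 CPM in DMSO replicates 1 to 4. The groups overlapped, and DPT replicate 2 and DMSO replicate 3 were far below the other 6 libraries. The log2 fold change was -0.07 (SE 0.18, edgeR adjusted p = 0.843, and 0.17 with the term). The FPKM ratio of SLC38A2 to SLC38A1 was 2.78 to 2.96 in DPT and 3.86 to 4.86 in DMSO, and the ratio in DPT replicate 2 (2.96) lay among those of the other DPT libraries. This ratio was chosen after the values were seen and was not tested. SLC38A2 made up 27.1% to 31.5% of the summed FPKM of all 59 genes in DPT and 40.1% to 42.9% in DMSO.

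**Figure D5:**
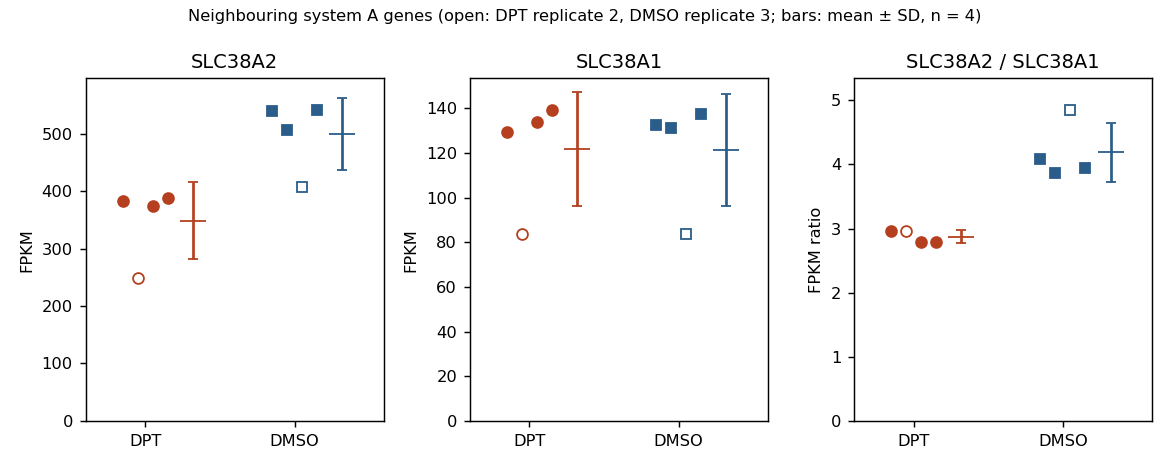
FPKM of the neighbouring genes SLC38A2 and SLC38A1 and their ratio in each library, DPT to the left of DMSO, with mean and SD (n = 4 each). DPT replicate 2 and DMSO replicate 3, drawn open, are each the lowest of their own group for both genes, while the ratio is 2.78 to 2.96 in DPT and 3.86 to 4.86 in DMSO.

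None of the other 4 tested SLC38 genes was called in all 8 libraries. SLC38A10 averaged 90.0 ± 11.1 CPM in DPT and 103 ± 10.5 CPM in DMSO, and SLC38A6 averaged 14.2 ± 1.43 CPM in DPT and 17.7 ± 2.42 CPM in DMSO (SD, n = 4 each). Their adjusted p-values (edgeR) were 0.257 and 0.134, and with the term they fell by 0.20 (adjusted p = 0.015) and 0.31 (adjusted p = 0.0128). SLC38A9, the lysosomal arginine sensor of the mTORC1 pathway, had 12.9, 11.1, 10.4 and 12.5 CPM in DPT replicates 1 to 4 and 13.1, 13.6, 10.2 and 10.5 CPM in DMSO replicates 1 to 4. These ranges overlapped (adjusted p = 0.958). SLC38A7, which exports glutamine from lysosomes, averaged 25.3 ± 4.11 CPM in DPT and 26.3 ± 4.45 CPM in DMSO (adjusted p = 0.869).

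No SLC1 gene was called in all 8 libraries. SLC1A5 (ASCT2), the main glutamine exchanger of many tumour cells, had 167, 146, 167 and 178 CPM in DPT replicates 1 to 4 and 185, 176, 132 and 181 CPM in DMSO replicates 1 to 4. The groups overlapped, with DMSO replicate 3 lowest (log2 fold change -0.03, SE 0.11, edgeR adjusted p = 0.882, and 0.714 with the term). An antisense gene shares 23.4% of its exonic bases. SLC1A4 (ASCT1), which exchanges serine, alanine and cysteine, had 47, 36.9, 41.3 and 36.6 CPM in DPT replicates 1 to 4 and 46.5, 51.5, 38.3 and 51.2 CPM in DMSO replicates 1 to 4. It was called lower only in the fits that set the pair aside, by 0.21 with the term (adjusted p = 0.0469) and by 0.26 in the 6 libraries (adjusted p = 0.0242), against an adjusted p of 0.282 in all 8. The glutamate carrier SLC1A3, for which a role in aspartate uptake is known, had 7, 3, 11 and 9 counts in DPT replicates 1 to 4 and 3, 1, 0 and 3 counts in DMSO replicates 1 to 4 and was too low to be tested.

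In SLC43, SLC43A3 (ENSG00000134802, chromosome 11) averaged 232 ± 38.4 CPM in DPT and 170.2 ± 28.8 CPM in DMSO (SD, n = 4 each). DPT replicate 2 (175 CPM) lay within the DMSO range and DMSO replicate 3 (129 CPM) was the lowest library. The difference was not called in all 8 libraries (log2 fold change 0.45, edgeR adjusted p = 0.0894) but was by DESeq2 (adjusted p = 0.0375), while with the term SLC43A3 rose by 0.45 (adjusted p = 1.47e-06) and in the 6 libraries by the same amount (adjusted p = 1.52e-06). A coding gene on the same strand overlaps 29.9% of its exonic bases, and the SLC43A3 counts were not whole in any of the 8 libraries. SLC43A2 (LAT4), a carrier of branched-chain amino acids, phenylalanine and methionine, had 39.3, 56.9, 33.1 and 36 CPM in DPT replicates 1 to 4 and 40.9, 44.6, 64.1 and 40.9 CPM in DMSO replicates 1 to 4. Here DPT replicate 2 and DMSO replicate 3 were the highest of their groups, and the gene was called lower with the term (log2 fold change -0.21, adjusted p = 0.021) but not in all 8 libraries (adjusted p = 0.556). SLC43A1 (LAT3) averaged 0.983 ± 0.302 CPM in DPT and 1.02 ± 0.415 CPM in DMSO (adjusted p = 0.957).

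Of the proton-coupled SLC36 carriers, SLC36A1 (PAT1), found on lysosomes and the cell surface, averaged 38.2 ± 3.42 CPM in DPT and 32.5 ± 2.95 CPM in DMSO (SD, n = 4 each; edgeR adjusted p = 0.138). With the term it rose by 0.23 (adjusted p = 0.0293), and in the 6 libraries its adjusted p was 0.0521. SLC36A4 (PAT4) averaged 21.5 ± 2.19 CPM in DPT and 23.1 ± 4.06 CPM in DMSO (adjusted p = 0.675).

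In SLC6, the taurine carrier SLC6A6 (ENSG00000131389, chromosome 3, 14402576 to 14489349) had 105, 87.4, 97.3 and 102 CPM in DPT replicates 1 to 4 and 124, 122, 123 and 119.9 CPM in DMSO replicates 1 to 4. The DMSO libraries lay close together, all above the DPT libraries, and DPT replicate 2 was lowest. SLC6A6 fell by 0.32 on the log2 scale (SE 0.07, edgeR adjusted p = 0.0156), by 0.32 with the term (adjusted p = 0.000104) and by 0.27 in the 6 libraries (adjusted p = 0.000309). The call from 8 libraries was lost without DPT replicate 3 (adjusted p = 0.0545) or DMSO replicate 1 (adjusted p = 0.0562), and with limma on log2(FPKM + 1) (adjusted p = 0.0739).

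SLC6A17 (ENSG00000197106, chromosome 1, 110150486 to 110202202), a carrier of neutral amino acids known from synaptic vesicles, rose from a low level. It had 3.30, 3.96, 6.28 and 4.90 CPM in DPT replicates 1 to 4 and 2.71, 2.24, 2.63 and 2.44 CPM in DMSO replicates 1 to 4, or 54 to 105 counts in DPT and 33 to 45 counts in DMSO. No DPT library overlapped the DMSO libraries, which were closer together. The rise was 1.84-fold (log2 fold change 0.88, SE 0.22, edgeR adjusted p = 0.0337). With the term the log2 fold change was 0.87 (adjusted p = 0.00615) and in the 6 libraries 0.97 (adjusted p = 0.00696). The call was lost without DPT replicate 3 or 4 or DMSO replicate 1, 2 or 4 (adjusted p 0.0804 to 0.0986), and with limma on log2(FPKM + 1) the value was 0.31 (adjusted p = 0.0757).

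The glycine carrier SLC6A9 (GLYT1) had 39.5, 17.0, 30.4 and 37.0 CPM in DPT replicates 1 to 4 and 54.1, 51.5, 27.0 and 54.7 CPM in DMSO replicates 1 to 4. DPT replicate 2 and DMSO replicate 3 had the 2 lowest values, and the groups overlapped through DMSO replicate 3. It was not called in all 8 libraries (log2 fold change -0.59, edgeR adjusted p = 0.212), while with the term it fell by 0.60 (adjusted p = 1.82e-05) and in the 6 libraries by 0.59 (adjusted p = 3.81e-05). SLC6A15, a carrier of branched-chain amino acids and proline known from brain, had 9 to 41 counts in DPT and 2 to 17 counts in DMSO (adjusted p = 0.244), and rose by 1.17 with the term (adjusted p = 0.00779). In the pair it had 9 counts in DPT replicate 2 and 2 counts in DMSO replicate 3. SLC6A8 (21.7 ± 0.947 CPM in DPT and 20.3 ± 1.57 CPM in DMSO, adjusted p = 0.511) and the betaine carrier SLC6A12 (2.23 ± 0.791 CPM in DPT and 1.59 ± 0.639 CPM in DMSO, adjusted p = 0.432) were called in none of the 3 fits.

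A further 31 genes were too low to be tested. No count was found for SLC1A6, SLC1A7, SLC6A2, SLC6A5, SLC6A7, SLC6A16, SLC6A18, SLC6A19, SLC7A13, SLC36A2, SLC36A3 or SLC38A8. At most 2 counts in a library were found for SLC6A3, SLC6A11, SLC6A14, SLC7A3, SLC7A9, SLC7A10 and SLC38A11. SLC1A1, a glutamate and cysteine carrier, reached 15 counts, SLC6A13 13, SLC7A14 10, SLC38A3 9, SLC1A2 and SLC38A4 8, SLC6A4 7, SLC38A5 and SLC3A1 5 and SLC6A20 4.

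Genes of the response to amino acid deprivation, in which ATF4 turns on amino acid synthesis, transport and stress genes, were set beside the transporters. Of 25 tested members 3 rose and 1 fell in all 8 libraries, where 5.68% of all tested genes rose and 5.29% fell. The median log2 fold change was 0.16, beside -0.002 over all genes, and it was 0.17 with the term and 0.08 in the 6 libraries. With 1 library left out it ranged from 0.04 without DMSO replicate 3 to 0.23 without DPT replicate 2. ATF3, a transcription factor of the stress response, rose 2.67-fold to 47.4 ± 5.30 CPM in DPT, against 17.8 ± 1.98 CPM in DMSO (edgeR adjusted p = 0.000231). SESN2, the leucine sensor sestrin 2, rose 1.99-fold to 37.3 ± 4.23 CPM in DPT, against 18.8 ± 3.09 CPM in DMSO (SD, n = 4 each; adjusted p = 0.00281). PYCR1, an enzyme of proline synthesis, rose 1.20-fold (adjusted p = 0.0241). CTH, which makes cysteine by transsulfuration, fell by 0.81 on the log2 scale (adjusted p = 0.0472, and 0.0761 in the 6 libraries). It had 20 to 27 counts in DPT and 27 to 44 counts in DMSO. With limma on log2(FPKM + 1) 2 members rose and 0 fell. The same numbers held without any single library other than DPT replicate 2 or DMSO replicate 3. Without DPT replicate 2, 6 members rose and 0 fell. With the term 12 members rose and 3 fell, where 16.9% and 17.0% of all tested genes did, and in the 6 libraries 11 rose and 4 fell, where 17.0% and 17.1% did. Asparagine synthetase, ASNS, a textbook marker of this response, had a log2 fold change of 0.16 in all 8 libraries (edgeR adjusted p = 0.673). It was 0.18 with the term (adjusted p = 0.0533) and 0.08 in the 6 libraries (adjusted p = 0.293). ATF4 itself had 0.17, 0.18 and 0.11 in the same fits (adjusted p = 0.485, 0.00895 and 0.0436). TRIB3, of the same list, had 0.72, 0.74 and 0.70 (adjusted p = 0.152, 2.39e-08 and 1.4e-08). ASNS, ATF4 and TRIB3 were named here after their values were seen.

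Of 30 genes of amino acid sensing by mTORC1 at the lysosome, subunits of mTORC1 included, 28 were tested. In all 8 libraries edgeR, DESeq2 and limma each called 0 of them, where they called 11.0%, 14% and 8.53% of all tested genes. Before adjustment 0 were higher and 1 lower by edgeR at p under 0.05, where 1713 and 1644 of all 12648 tested genes were. In the fit with the term 4 (14.3%) were higher and 2 (7.14%) lower, where 16.9% and 17.0% of all tested genes were. On the log2 scale RRAGD, a Rag GTPase, rose by 0.25 (adjusted p = 0.00615) and FNIP2, a folliculin partner, by 0.30 (adjusted p = 0.0126) in that fit. The Rag GTPase RRAGB fell by 0.45 (adjusted p = 0.0178) and CASTOR2, a relative of the arginine sensor CASTOR1, by 0.41 (adjusted p = 0.0279, and 0.204 in the 6 libraries). In the 6 libraries 5 (17.9%) of this list were higher and 2 (7.14%) lower, where 17.0% and 17.1% of all tested genes were. Of 23 other amino acid and peptide carriers 14 were tested. In all 8 libraries 1 (7.14%) was called, where 11.0% of all tested genes were. This was SLC25A22, a mitochondrial glutamate carrier, which rose 1.39-fold to 59.5 ± 4.98 CPM in DPT, against 42.9 ± 2.39 CPM in DMSO (SD, n = 4 each; edgeR adjusted p = 0.00633). With the term 3 others (21.4%) fell, where 17.0% of all tested genes did. Among these 3 were SLC25A12, an aspartate and glutamate exchanger of mitochondria (log2 fold change -0.36, adjusted p = 0.00238), and SLC25A29, a mitochondrial carrier of basic amino acids (log2 fold change -0.42, adjusted p = 0.00717).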

How the data were processed

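RNA-seq of 8 H2452 libraries was used. Per the file headers, the authors deposited an expected count and an FPKM value per gene and library. The deposited expected counts were not whole in 10.8% of values and were rounded. The build was hg38, and the tools named were RSEM, HISAT2, DESeq2, fastp 0.18.0 and StringTie 1.3.1, all per the submitters' processing notes, which were read here without settings. Estimated counting can split reads between overlapping or similar genes. DPT was compared with DMSO by edgeR 4.0.16 (R 4.3.3; filterByExpr at its minimum count, 10, and minimum total, 15, TMM, quasi-likelihood test, intercept and treatment), with Benjamini-Hochberg adjustment over all tested genes and a threshold of 0.05. The test was checked on simulated counts whose spread between replicates was smaller than the 14.9% fitted in all 8 libraries. No pair stood apart in those counts, so the check does not cover this feature of the data. SE is the absolute log2 fold change divided by the square root of F. Alternatives were a term for the pair, the 6 other libraries, a replicate block, DESeq2 1.42.0, limma 3.58.1 on log2(FPKM + 1), RLE scaling, no count filter, and each library left out. Named in full were the genes called in all 8 libraries and 13 listed genes, SLC7A4 among them, whether or not called. The members and lists were chosen with earlier results of these data known. Gene positions and overlaps come from GENCODE 29 and promoters from RefSeq (GRCh38.p14). Some untested genes and markers are not reported here by name.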

Additional observations from a re-analysis of the deposited data

Results flagged for a closer look

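In 7 of 56 sets of 4 libraries (28 tested genes in 2 groups), 1 library lay far from the other 3 by Dixon's test, which chance does in about 1 of 20 sets. In each of them the library was DMSO replicate 3 or DPT replicate 2, the pair that stood apart on the first principal component. All sets come from the same 8 libraries and are not independent, so 7 of 56 cannot be set against that rate as a test. DPT replicate 2 was low for SLC38A2 (1133 CPM against 1689 to 1777 in the other DPT libraries) and SLC43A3 (175.3 against 247.4 to 258.6 CPM). DMSO replicate 3 was low for SLC38A1 (583 CPM against 940.3 to 950.9 in the other DMSO libraries), SLC1A5 (132.1 against 176.1 to 185.1 CPM), SLC7A1 (200.9 against 247.7 to 250.6 CPM) and SLC6A9 (26.98 against 51.51 to 54.72 CPM), and high for SLC43A2 (64.06 against 40.91 to 44.6 CPM).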

How the results depend on the processing

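No transporter gene changed direction while called under any of the 15 alternatives. Higher and lower transporter calls, 2 and 4 in all 8 libraries, became 7 and 10 with the term for the pair, 7 and 10 in the 6 libraries, 1 and 1 with the replicate block and 1 and 1 with limma on log2(FPKM + 1). With 1 library left out they ranged from 1 to 4 and from 1 to 5. All-gene calls, 718 and 669, became 2140 and 2156 with the term, 2158 and 2169 in the 6 libraries, 171 and 174 with the block and 737 and 342 with limma, and ranged from 332 to 1183 and from 311 to 1108 with 1 library left out. Of the deprivation list 15, 15, 2 and 2 genes were called with the term, in the 6 libraries, with the block and with limma, and 2 to 6 with 1 library left out. The sensing list gave 6 and 7 with the term and in the 6 libraries and 0 to 3 with 1 library left out, and the other carriers 4, 3 and 0 with the term, in the 6 libraries and with the block. DESeq2 called 3 transporter genes higher and 5 lower. The cause of these moves was not tested. Deviations of same-numbered DPT and DMSO libraries correlated at 0.204, -0.314, -0.396 and 0.209 for replicates 1 to 4, so the numbers were not taken to pair the libraries. Below about 1 CPM, 15 to 17 counts, only large differences could be detected.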
